A study of Homo sapiens with 28 samples.

Results

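The BCL2 family and its neighbours among the regulators of cell death were followed through 10 genes, matched by gene symbol: MCL1, BCL2, BCL2L1, BCL2L11, BBC3, PMAIP1, BAX, BAK1, CFLAR and XIAP. All 10 were found among the 16482 genes of the table of all reads and among the 13029 genes of the table of T>C reads. The RNA came from MDA-MB-453, an established human breast cancer line. Cells were kept for 3 h in the solvent DMSO, in JQ1 or IBET151, or in JQ1-VHL or IBET151-VHL. JQ1 and IBET151 occupy the bromodomains of BET proteins, which recruit the transcription machinery to acetylated chromatin. JQ1-VHL and IBET151-VHL join such an inhibitor to a group that binds VHL, a ubiquitin ligase, a design meant to have BET proteins degraded. All groups, the DMSO controls included, received 0.1 mM 4-thiouridine for the last 60 min, which shows up as T-to-C conversions, so that T>C reads stand for RNA made in that time. All groups also carried 10% Drosophila S2 cells, added before the fractionation, and each culture was parted with digitonin into a cytoplasmic and a nuclear fraction. From these, 28 libraries of 3′ ends were made. IBET151 has 2 of them in a fraction and every other treatment 3, which makes 10 groups. Doses are not stated, no library lacks 4-thiouridine, and all results come from 1 cell line.

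Cells decide on mitochondrial apoptosis through a balance within the BCL2 family. The guardians MCL1, BCL2 and BCL-XL (the product of BCL2L1) hold BAX and BAK1 in check, the 2 effectors that open the outer mitochondrial membrane. BH3-only proteins such as BIM (BCL2L11), PUMA (BBC3) and NOXA (PMAIP1) bind the guardians and release the effectors, NOXA acting chiefly on MCL1. CFLAR (c-FLIP) blocks caspase activation at death receptors, and XIAP inhibits caspases that are already active. MCL1 is known for a short-lived mRNA and protein.

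The cytoplasmic values of the 3 BH3-only genes were higher in every library with a parent inhibitor than in any with DMSO, so the promoters of these genes are shown, from RefSeq on GRCh38.p14, as the 250 bases before the start. RefSeq starts were matched for 9 of the 10 genes, and MCL1 was not matched. Capitals mark GC boxes, the letters GGGCGG or the reverse complement CCGCCC, the element bound by SP1.
BBC3, chr19:47232668-47232917, minus strand: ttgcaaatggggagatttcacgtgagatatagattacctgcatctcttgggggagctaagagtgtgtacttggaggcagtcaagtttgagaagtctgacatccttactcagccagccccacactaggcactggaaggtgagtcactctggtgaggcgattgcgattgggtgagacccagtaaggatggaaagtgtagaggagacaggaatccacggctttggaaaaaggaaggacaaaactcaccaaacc
PMAIP1, chr18:59899746-59899995, plus strand: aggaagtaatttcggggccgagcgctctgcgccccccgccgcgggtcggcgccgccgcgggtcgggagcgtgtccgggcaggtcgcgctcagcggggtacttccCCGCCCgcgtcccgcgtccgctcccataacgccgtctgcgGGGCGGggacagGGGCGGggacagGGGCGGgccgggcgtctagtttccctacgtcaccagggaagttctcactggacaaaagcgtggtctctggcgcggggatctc
BCL2L11, chr2:111120664-111120913, plus strand: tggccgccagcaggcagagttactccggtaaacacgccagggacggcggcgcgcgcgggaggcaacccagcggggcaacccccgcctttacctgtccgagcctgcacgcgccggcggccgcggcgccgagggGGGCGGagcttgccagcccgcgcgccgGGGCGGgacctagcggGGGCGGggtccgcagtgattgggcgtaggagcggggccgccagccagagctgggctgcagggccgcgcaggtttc
PMAIP1 held 4 GC boxes in this window and BCL2L11 held 3, against 0 in BBC3. A GC box was present in 42.6% of the 35116 windows of the same length. TATAAA or its reverse complement TTTATA was present in 10.7% of them and in 0 of these 3. The GC content of the window was 49.2% for BBC3, 72.8% for PMAIP1 and 76.8% for BCL2L11. A match describes letters only.

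Depth was 30647584 to 68475299 reads in the cytoplasmic and 17851589 to 38658448 reads in the nuclear libraries, with 82264 to 379401 and 214725 to 1928012 T>C reads. Values are reads scaled by the authors to ERCC spike-in RNA, which was added per mass of RNA, so 1 read is worth 0.374 to 0.951 units in the cytoplasmic and 0.670 to 2.24 in the nuclear libraries. The 8 luminal and HER2 markers of the line were all present, with GATA3 at 39100 to 53400 in cytoplasmic DMSO libraries, while the basal keratins KRT5 and KRT14 reached at most 1.55 there. The stromal marker COL1A1 stood at 1170 to 2500, whereas COL1A2, COL3A1, DCN and PDGFRB reached at most 2.59. Replicate 1 of each nuclear group with 3 libraries gave lower values than the other replicates for most genes described here, and T>C shares over all genes in nuclear DMSO and JQ1 libraries were lowest in replicate 3. The labels give each library a number. These numbers were grouped here into 4 runs (A to D), a grouping that the labels do not name. DMSO and JQ1 are in A, B and D, the VHL compounds in A, B and C, and IBET151 in B and C. Run C holds no DMSO library, so values from it have no control of their own run. Differences below are log2 differences of value + 1 from limma, with Benjamini-Hochberg adjustment over all genes and a threshold of 0.05, ± the standard error. This scale understates the change of genes with low values. The 4 comparisons with DMSO share its libraries. The labels do not say whether replicates were separate cultures, so p-values measure the spread between these libraries. In bulk RNA, fewer cells with a transcript and less of it per cell cannot be told apart.

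Under the parent inhibitors, the cytoplasmic mRNA of 3 of the 10 genes rose: MCL1, BBC3 and PMAIP1. BCL2L1 fell with both inhibitors and CFLAR with JQ1. JQ1 thus called 3 genes higher and 2 lower, where 4.82% of all 12470 genes tested were called, and IBET151 called 3 higher and 1 lower, where 2.52% were called. The median difference of the 10 genes was -0.18 for JQ1 and 0.05 for IBET151, against -0.13 and 0.00 over all genes.

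**Figure D1:**
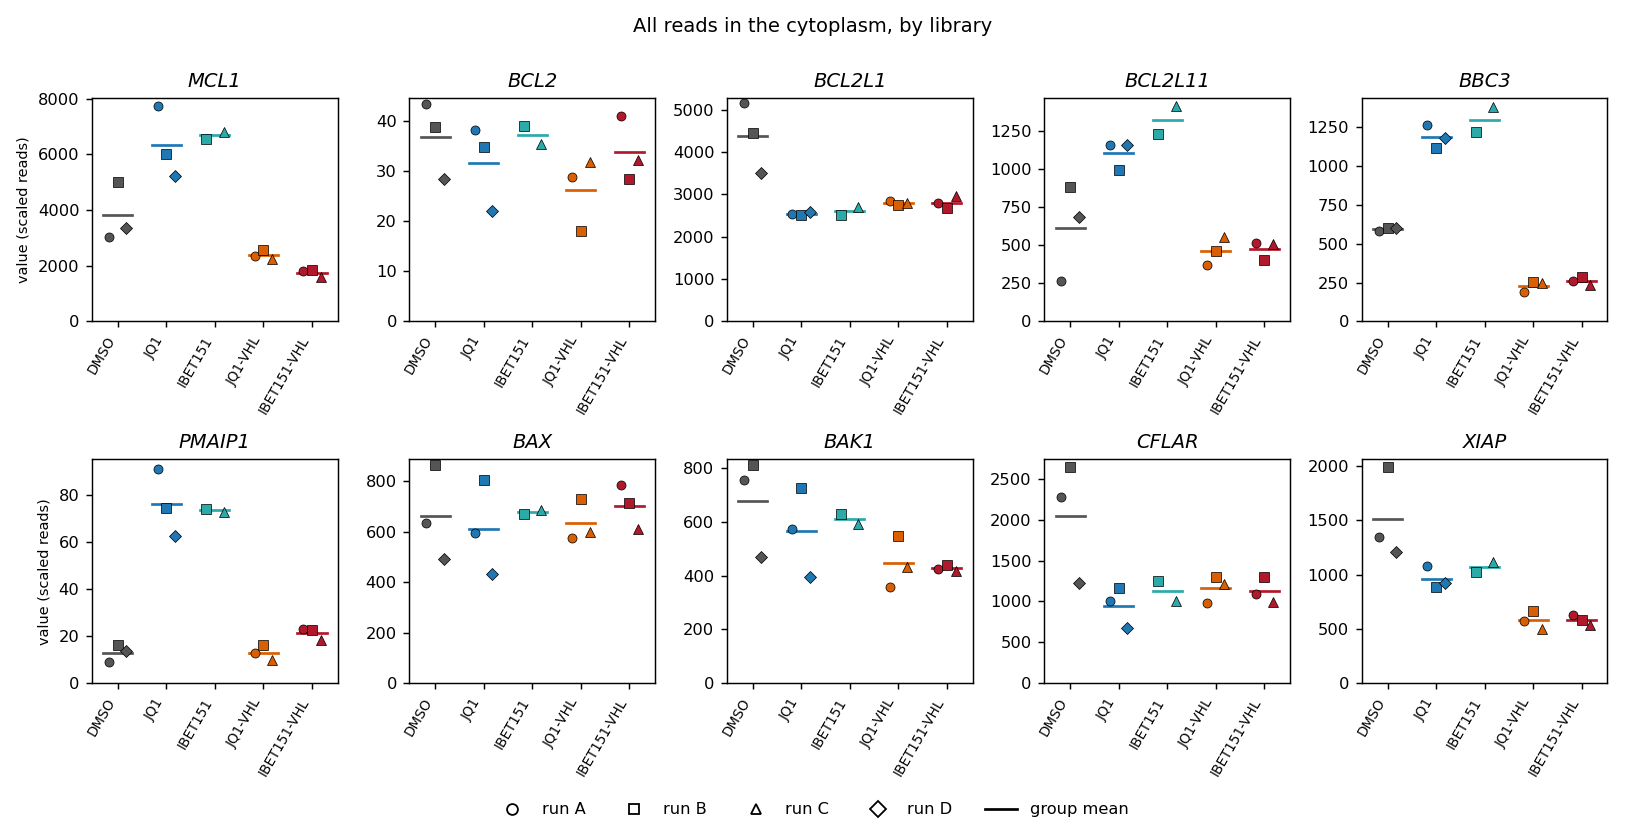
Values of all reads (scaled reads, linear axis from 0) in the 14 cytoplasmic libraries, 1 panel per gene; each symbol is 1 library, its shape the run of library numbers, and the line is the group mean. MCL1, BBC3 and PMAIP1 are highest under JQ1 and IBET151, and BCL2L1 is highest in DMSO.

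PMAIP1 had the largest change of the 10 genes. It stood at 8.86, 16.0 and 13.5 in DMSO, at 91.1, 74.6 and 62.4 in JQ1, and at 74.2 and 72.9 in IBET151. The inhibitor libraries were all above the DMSO libraries by a wide gap. The rise was 2.50 ± 0.31 with JQ1 (adjusted p = 5.84e-04) and 2.47 ± 0.35 with IBET151 (adjusted p = 0.002), and both passed under every alternative tried. In JQ1-VHL the values were 12.7, 16.3 and 9.66, and in IBET151-VHL 22.9, 22.5 and 18.5. The former overlapped DMSO. The latter lay above all DMSO libraries, but the difference of 0.72 ± 0.31 did not pass (adjusted p = 0.157), except with median-ratio scaling (adjusted p = 0.0269). PMAIP1 is thinly covered, with 723 reads over the 14 cytoplasmic libraries.

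BBC3, which encodes PUMA, moved in opposite directions with the 2 kinds of compound. DMSO libraries held 584, 599 and 604. JQ1 libraries held 1263, 1117 and 1182, and IBET151 libraries 1219 and 1382. In JQ1-VHL the level was 190, 253 and 248, and in IBET151-VHL 262, 286 and 236. All libraries with a parent inhibitor lay above the DMSO libraries, and all VHL libraries lay below them. BBC3 rose by 0.99 ± 0.16 with JQ1 (adjusted p = 0.00283) and by 1.12 ± 0.18 with IBET151 (adjusted p = 0.0045). It fell by 1.38 ± 0.16 with JQ1-VHL (adjusted p = 7.6e-05) and fell by 1.19 ± 0.16 with IBET151-VHL (adjusted p = 1.3e-04). Within runs, JQ1 minus DMSO was 0.90 to 1.11 over 3 runs, JQ1-VHL minus DMSO was -1.62 to -1.24 over 2, and IBET151-VHL minus DMSO was -1.15 to -1.06 over 2. Both falls passed under every alternative tried, while both rises were lost with only the groups compared, and that with IBET151 also without IBET151 replicate 2, at adjusted p up to 0.0653 for JQ1 and 0.0981 for IBET151.

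BCL2L11, which encodes BIM, stood at 266, 877 and 684 in DMSO, 1155, 992 and 1153 in JQ1, and 1229 and 1408 in IBET151. The inhibitor libraries were all higher than the DMSO libraries, of which replicate 1 was far lower than the other two. The differences of 1.02 ± 0.33 and 1.28 ± 0.37 did not pass (adjusted p = 0.1 and 0.0936). The JQ1 difference passed in the fit blocked by run (adjusted p = 0.0434) and with median-ratio scaling, the IBET151 difference in DESeq2 and with the replicate number as a block (adjusted p = 0.0364, although the numbers of IBET151 did not pair), and both passed without DMSO replicate 2. JQ1-VHL gave 366, 461 and 550 and IBET151-VHL 512, 405 and 505, both inside the range of DMSO. Without DMSO replicate 1 both groups were lower than DMSO past the threshold (adjusted p = 0.0243 and 0.029).

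Among the guardians, MCL1 followed the pattern of BBC3. Its level was 3042, 5018 and 3357 in DMSO, 7731, 6022 and 5210 in JQ1, and 6558 and 6817 in IBET151. The VHL compounds left 2352, 2580 and 2258 (JQ1-VHL) and 1798, 1855 and 1590 (IBET151-VHL). None of the drug groups overlapped DMSO. MCL1 rose by 0.75 ± 0.19 with JQ1 (adjusted p = 0.0346) and by 0.85 ± 0.21 with IBET151 (adjusted p = 0.0494), and it fell by 0.63 ± 0.19 with JQ1-VHL (adjusted p = 0.0394) and fell by 1.09 ± 0.19 with IBET151-VHL (adjusted p = 8.4e-04). Both rises were lost in a fit of only the groups compared and when DMSO replicate 1 or 3 was left out. The rise with JQ1 was also lost without JQ1 replicate 1 or 2, that with IBET151 without either of its 2 libraries, with a pseudocount of 0.5, without a filter and in edgeR, and the fall with JQ1-VHL with only the groups compared and without DMSO replicate 2 or any 1 of the JQ1-VHL libraries. The highest adjusted p over all alternatives was 0.236 for JQ1, 0.303 for IBET151, 0.135 for JQ1-VHL and 0.011 for IBET151-VHL.

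BCL2L1 was lower in every drug group. DMSO libraries held 5155, 4450 and 3509, and all 11 drug libraries lay between 2504 and 2952. No drug library reached the lowest DMSO library. The difference was -0.76 ± 0.15 with JQ1 (adjusted p = 0.00741), -0.73 ± 0.16 with IBET151 (adjusted p = 0.0259), -0.63 ± 0.15 with JQ1-VHL (adjusted p = 0.00941) and -0.62 ± 0.15 with IBET151-VHL (adjusted p = 0.00725). With median-ratio scaling over human genes the falls under JQ1-VHL and IBET151-VHL no longer passed, and with only the groups compared none of the 4 did. The call for IBET151 was also lost without DMSO replicate 1 or either IBET151 library.

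BCL2 was low, at 28.5 to 43.5 in DMSO and 18.1 to 41.0 over the 11 drug libraries. Its differences from DMSO lay between -0.49 and 0.03 and none passed.

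**Figure D2:**
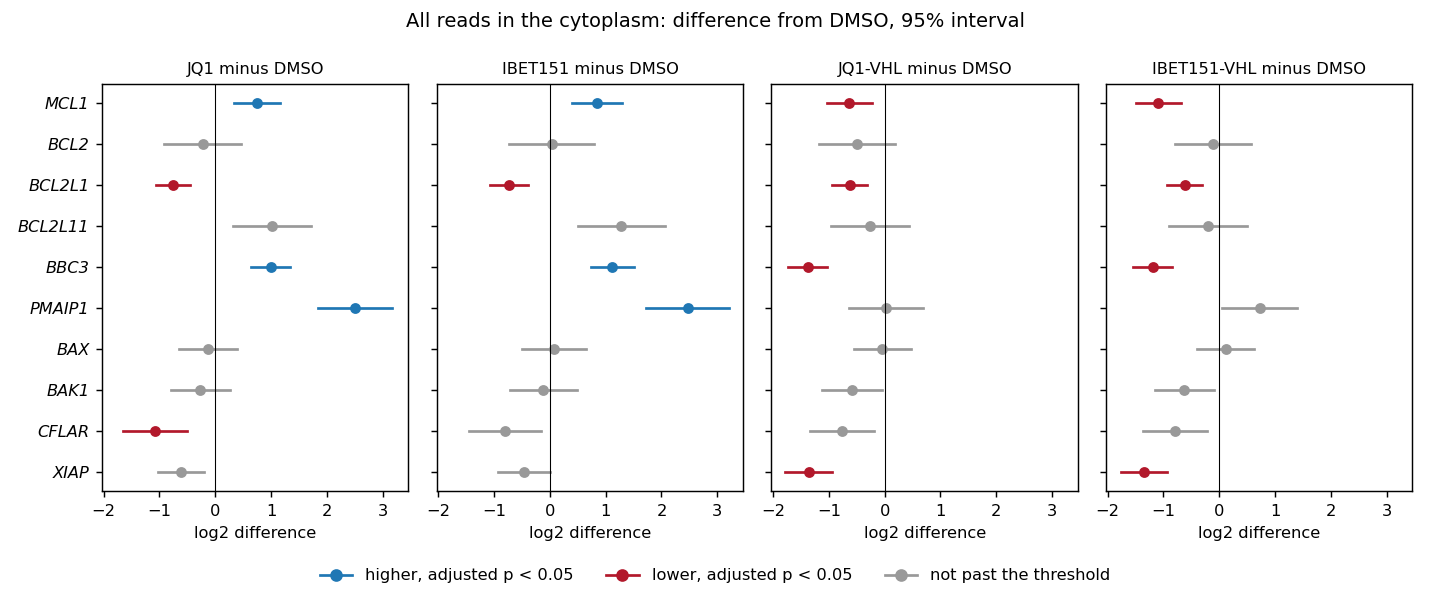
Log2 difference from DMSO of each of the 10 genes in the cytoplasm (points, with the 95% interval as a line), 1 panel per compound, from all reads. MCL1, BBC3 and PMAIP1 lie right of 0 under JQ1 and IBET151, and MCL1, BCL2L1, BBC3 and XIAP lie left of 0 under both VHL compounds.

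The VHL compounds lowered 4 genes each, MCL1, BCL2L1, BBC3 and XIAP, and raised 0. Of all genes 12.9% were called with JQ1-VHL and 15.8% with IBET151-VHL. The median of the 10 genes was -0.61 and -0.63, against -0.17 and -0.16 over all genes.

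XIAP, the caspase inhibitor, stood at 1344, 1988 and 1205 in DMSO. It stood at 573, 664 and 495 in JQ1-VHL and at 630, 583 and 536 in IBET151-VHL. All 6 libraries were far below the lowest DMSO library. The differences were -1.36 ± 0.19 (adjusted p = 3.15e-04) and -1.34 ± 0.19 (adjusted p = 1.93e-04), and XIAP passed under every alternative tried for both compounds. Under JQ1 the libraries held 1078, 889 and 924, all below DMSO, and the difference of -0.62 ± 0.19 did not pass (adjusted p = 0.0889). It passed with the replicate number as a block (adjusted p = 0.0408), with the run as a block (adjusted p = 0.0291), in DESeq2 and without DMSO replicate 3.

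CFLAR held 2283, 2641 and 1230 in DMSO and 1007, 1158 and 671 in JQ1. It fell by 1.08 ± 0.27 with JQ1 (adjusted p = 0.0316). The call was lost without DMSO replicate 1 or 2, without JQ1 replicate 1 or 3, and with only the groups compared, at adjusted p up to 0.17. Within the 3 runs the difference was -1.19 to -0.87. In IBET151 (1255 and 999), JQ1-VHL (974, 1293 and 1217) and IBET151-VHL (1096, 1300 and 998) the libraries overlapped DMSO, whose replicate 3 was low. The differences of -0.80, -0.76 and -0.79 did not pass. Without DMSO replicate 3 all 3 passed. With the replicate block, CFLAR passed for JQ1-VHL (adjusted p = 0.0271), IBET151-VHL (adjusted p = 0.0176) and IBET151 (adjusted p = 0.0454), and blocking by run gave calls for the same 3 (adjusted p = 2.44e-04, 1.13e-04 and 0.00195). XIAP and BAK1 have pseudogene copies and CFLAR an antisense gene, and how such reads were counted is not given in the sources used here.

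Of the effectors, BAX held 492 to 865 in DMSO and 431 to 807 over the drug libraries, with differences from DMSO of -0.13 to 0.11, none past the threshold. BAK1 held 470 to 811 in DMSO. Its libraries were at 359 to 547 in JQ1-VHL and at 418 to 441 in IBET151-VHL, with differences of -0.58 ± 0.25 and -0.63 ± 0.25 that did not pass (adjusted p = 0.166 and 0.117). The replicate block gave adjusted p = 0.0432 for BAK1 in IBET151-VHL. The run as a block gave 0.0015 for JQ1-VHL and 7.6e-04 for IBET151-VHL, and both also passed without DMSO replicate 3.

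Compounds were then set against each other in 4 pairs, 2 of parent and VHL form, the 2 parents and the 2 VHL forms, at 1 time and with doses that the labels do not give. Joining the VHL ligand went with lower levels of the same 5 genes in both pairs: MCL1, BCL2L11, BBC3, PMAIP1 and XIAP. Of all genes 4.23% were called for JQ1-VHL minus JQ1 and 7.91% for IBET151-VHL minus IBET151. Differences for the 10 genes are adjusted over all genes within each pair.

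**Figure D3:**
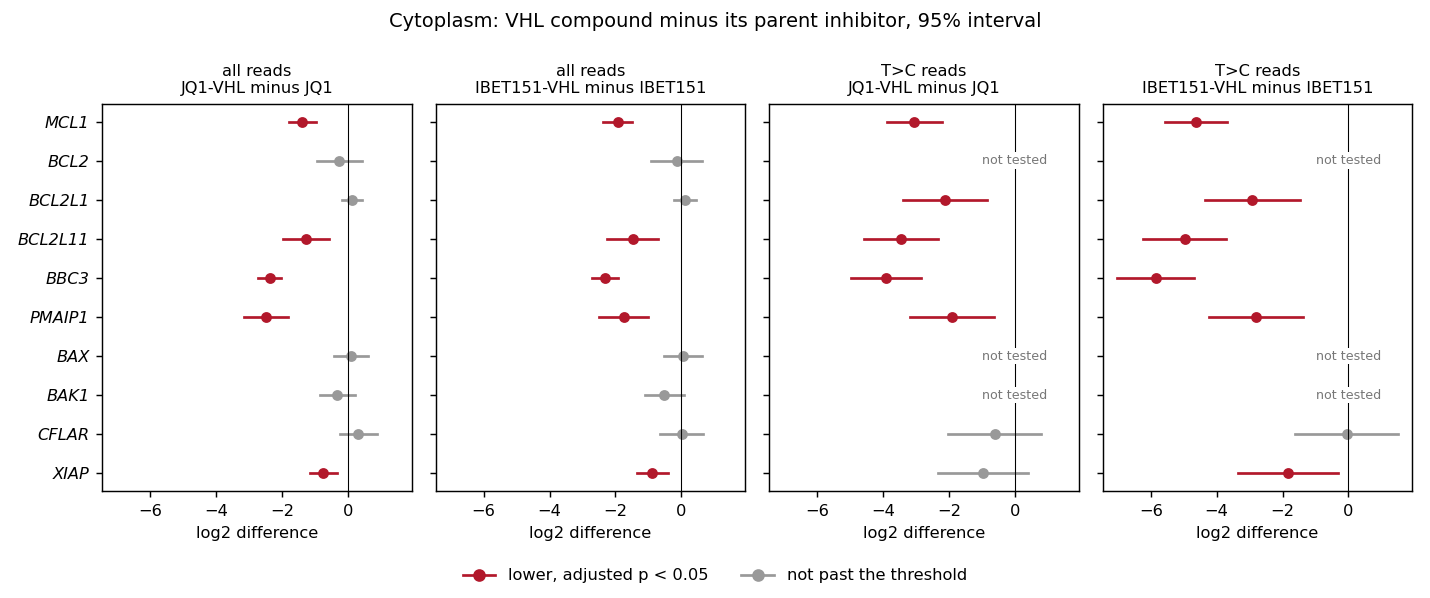
Log2 difference of each VHL compound from its parent inhibitor in the cytoplasm (points, with the 95% interval as a line), from all reads (left 2 panels) and T>C reads (right 2 panels). MCL1, BCL2L11 and BBC3 lie left of 0 in all 4 panels, and in all reads the BCL2L1 intervals span 0.

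For BBC3 the VHL form minus its parent was -2.37 ± 0.16 in the JQ1 pair and -2.31 ± 0.18 in the IBET151 pair (adjusted p = 2.95e-06 and 9.17e-06). For MCL1 it was -1.38 ± 0.19 and -1.94 ± 0.21 (adjusted p = 4.3e-04 and 7.26e-05). For PMAIP1 it was -2.48 ± 0.31 and -1.75 ± 0.35 (adjusted p = 2.24e-04 and 0.00497). These 3 genes passed in the JQ1 pair under every alternative, as did BBC3 and MCL1 in the IBET151 pair, where PMAIP1 was lost without either IBET151 library (adjusted p up to 0.0629). The differences were -1.28 ± 0.33 and -1.48 ± 0.37 for BCL2L11 (adjusted p = 0.0381 and 0.0192) and -0.74 ± 0.19 and -0.88 ± 0.22 for XIAP (adjusted p = 0.0424 and 0.0192). In the JQ1 pair the calls of BCL2L11 and XIAP were lost without a filter and when any 1 of the 6 libraries was left out, and in the IBET151 pair without either IBET151 library or IBET151-VHL replicate 2. XIAP in the IBET151 pair was lost without IBET151-VHL replicate 3 as well. Within runs, JQ1-VHL minus JQ1 was -1.66 to -1.10 for BCL2L11 and -0.91 to -0.42 for XIAP.

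For BCL2L1 no difference from the parent passed, and the intervals were narrow, -0.18 to 0.44 in the JQ1 pair and -0.24 to 0.46 in the IBET151 pair. The intervals of CFLAR were -0.25 to 0.90 and -0.64 to 0.65.

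Neither the 2 parents nor the 2 VHL forms differed past the threshold in any of the 10 genes, with 0% and 0.016% of all genes called. At an unadjusted p under 0.05 there were 0 of the 10 genes between the parents and 2 between the VHL forms. Of all 12470 genes there were 66 and 323. For JQ1 minus IBET151 the interval was -0.55 to 0.35 for MCL1, -0.52 to 0.26 for BBC3 and -0.71 to 0.78 for PMAIP1. For JQ1-VHL minus IBET151-VHL it was 0.05 to 0.86 for MCL1, -0.54 to 0.16 for BBC3 and -1.37 to -0.04 for PMAIP1. The MCL1 and PMAIP1 libraries of the 2 VHL forms did not overlap, MCL1 being higher in JQ1-VHL and PMAIP1 in IBET151-VHL.

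The T>C share is the part of a gene's cytoplasmic reads with a conversion, which reflects RNA made in the last 60 min. The T>C share in DMSO was 7.30%, 5.21% and 5.57% for BBC3, 6.36%, 5.78% and 3.86% for BCL2L11, and 4.47%, 3.80% and 3.02% for MCL1. PMAIP1 had 9.09%, 0% and 7.69%, from 3 T>C reads in all, too few to place it among them. Over all reads of a library the share was 0.747% to 0.818% in DMSO. BCL2L1 was at 0.531% to 0.796%, CFLAR at 0.423% to 0.799% and XIAP at 1.03% to 1.38%. The background of conversions without 4-thiouridine was not measured, nor how much new RNA lacks a conversion. The shares thus do not give the amount newly made, and do not rank genes by it.

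**Figure D4:**
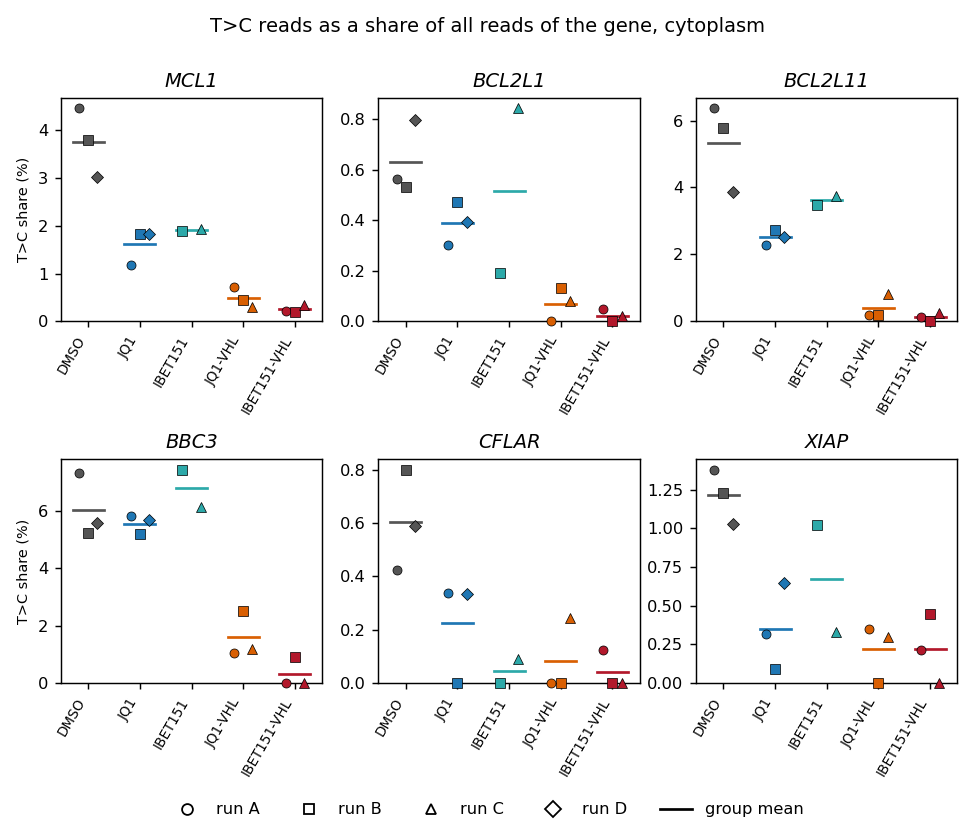
T>C reads as a percentage of all reads of the gene in the 14 cytoplasmic libraries (linear axis from 0, a separate scale per panel); each symbol is 1 library, its shape the run, and the line the group mean. The shares of MCL1, BCL2L11 and BBC3 are lowest under the VHL compounds, and the BBC3 share under JQ1 overlaps that of DMSO.

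T>C values in the cytoplasm could be tested for 7 of the 10 genes; BCL2, BAX and BAK1 were under the minimum. CFLAR reached the minimum of 5 in the 3 DMSO libraries alone, and PMAIP1 in 1 JQ1 and both IBET151 libraries alone. These 2 genes entered the fit only through groups where they are high, so their values are a description and no call of theirs is used. The other 5 genes (MCL1, BCL2L1, BCL2L11, BBC3 and XIAP) were lower with each VHL compound, where 83% and 88.4% of the 6300 genes tested were called with JQ1-VHL and IBET151-VHL. That share of calls is so large that nothing is read from the count. Of these 5, BCL2L1, BCL2L11 and XIAP reached the minimum in no VHL library, and BBC3 in no IBET151-VHL library. They too entered through groups where they are high, so their falls under those compounds are a description. The median T>C difference over all genes was -0.97 with JQ1, -0.60 with IBET151, -2.42 with JQ1-VHL and -2.89 with IBET151-VHL.

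The T>C values of MCL1 were 136, 191 and 101 in DMSO, 92, 110 and 95.3 in JQ1, and 125 and 132 in IBET151. They were 16.8, 11.8 and 6.68 in JQ1-VHL and 4.04, 3.46 and 5.37 in IBET151-VHL. The VHL libraries lay far below all others, with differences from DMSO of -3.53 ± 0.41 (adjusted p = 8.32e-08) and -4.73 ± 0.41 (adjusted p = 1.24e-10). Under the parents MCL1 T>C values overlapped DMSO, with differences of -0.48 and -0.11 that did not pass, while its mRNA in all reads rose. The MCL1 share accordingly stood at 1.19%, 1.83% and 1.83% in JQ1 and at 1.90% and 1.94% in IBET151, all below DMSO, with differences of -1.23 ± 0.48 and -0.95 ± 0.53 that did not pass (adjusted p = 0.104 and 0.365).

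BBC3 T>C values were 42.7, 31.2 and 33.6 in DMSO, 73.3, 57.9 and 66.9 in JQ1, and 90.3 and 84.7 in IBET151. Every parent library exceeded every DMSO library, but the differences of 0.87 ± 0.52 and 1.28 ± 0.58 did not pass (adjusted p = 0.209 and 0.18). JQ1-VHL left 2.01, 6.34 and 2.97, and IBET151-VHL 0, 2.59 and 0. In reads, 155 in the 3 DMSO libraries stood against 14 and 3, a ratio after scaling of 0.0999 (exact 95% counting interval 0.0534 to 0.173) and 0.0195 (0.00398 to 0.0582). The intervals here and below pool the reads of a group's libraries and cover counting error only. They leave out the spread between libraries, and reads without molecular identifiers are not independent molecules. BCL2L11 had 132 T>C reads in DMSO, 8 in JQ1-VHL and 3 in IBET151-VHL, with ratios of 0.067 (0.0283 to 0.136) and 0.0229 (0.00467 to 0.0685).

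PMAIP1 had 3 T>C reads in all DMSO libraries together, 17 in JQ1, 28 in IBET151, 1 in JQ1-VHL and 5 in IBET151-VHL. The ratio to DMSO was 4.84 (1.40 to 25.8) for JQ1 and 18.9 (5.85 to 97.3) for IBET151. With 3 reads in DMSO, a fall under the VHL compounds was not detectable.

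XIAP lost T>C reads with JQ1, where 20.6% of genes were called, with a difference of -2.31 ± 0.67 (adjusted p = 0.0175). The T>C reads of XIAP were 76 in DMSO, 21 in JQ1 and 15 in IBET151, with ratios to DMSO of 0.236 (0.138 to 0.386) and 0.4 (0.214 to 0.703). The call was lost with a pseudocount of 0.5 and without DMSO replicate 1 or 2 or JQ1 replicate 2, at adjusted p up to 0.088. With IBET151, where 7.29% were called, the calls among the 7 genes were CFLAR and PMAIP1, the 2 that entered through groups where they are high. The T>C reads of CFLAR were 51 in DMSO, 10 in JQ1 and 1 in IBET151, with ratios of 0.167 (0.0757 to 0.333) and 0.0398 (0.000988 to 0.232).

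Against their parents, the VHL compounds lowered the T>C values of MCL1, BCL2L1, BCL2L11 and BBC3 in both pairs, and of XIAP in the IBET151 pair, where 46.6% and 69.1% of all genes were called. The median over all genes was -1.39 and -2.25. BCL2L1, BCL2L11 and XIAP were under the minimum in every VHL library, and BBC3 in every IBET151-VHL library, so these falls are a description. The differences were -3.91 ± 0.52 and -5.85 ± 0.58 for BBC3 and -3.05 ± 0.41 and -4.63 ± 0.45 for MCL1. XIAP in the IBET151 pair was lost without IBET151 replicate 1 and BCL2L1 in the JQ1 pair without JQ1-VHL replicate 1. In the IBET151 pair, XIAP was also lost without IBET151-VHL replicate 3 or without a filter and BCL2L1 without IBET151 replicate 2.

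T>C reads were also tested as a share of the gene's own reads. Scaling does not touch the share itself, but the test adds 1 to both scaled values, so at low values it depends on scaling. In this form 0 of the 7 genes differed from DMSO with either parent, where 7.83% (JQ1) and 3.76% (IBET151) of genes were called. Unadjusted, 3 of the 7 had a p under 0.05 with JQ1, as did 1805 of the 6300 genes tested. With each VHL compound 6 of the 7 were lower, CFLAR among them, where 76.3% (JQ1-VHL) and 82.3% (IBET151-VHL) were called. The medians of all genes were -2.09 and -2.5. The minimum was that of the T>C values, so CFLAR entered through the DMSO libraries alone and its call is not used. BCL2L1, BCL2L11 and XIAP entered through no VHL library, and BBC3 through no IBET151-VHL library, so these falls are a description. The calls of XIAP were lost with the run as a block, with a pseudocount of 5, and without JQ1-VHL replicate 2 or IBET151-VHL replicate 3 in turn, at adjusted p up to 0.146 and 0.145, and that of CFLAR with JQ1-VHL was lost with a pseudocount of 5. BBC3 had shares of 5.80%, 5.18% and 5.66% in JQ1, which overlapped those of DMSO, next to a share of 1.06% to 2.51% in JQ1-VHL.

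BAX gave 0 T>C reads among 12578 cytoplasmic reads, and BCL2 gave 0 among 637. With 3 reads as the upper limit, an approximate 95% bound, the share could be up to 0.0239% for BAX and 0.471% for BCL2. This bound takes reads as independent. Of the 5540 genes in both tables with at least as many cytoplasmic reads as BAX, 46 had 0 T>C reads in the cytoplasm, and of the 4793 of these with at least as many nuclear T>C reads as BAX, 7 did. How T>C reads were called, and whether positions of sequence variants were masked, is not given in the sources used here. In the nucleus BAX had 291 T>C reads among 6922 reads.

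In the nucleus, values of all reads varied more between replicates, and 0 of the 10 genes passed against DMSO with any compound. The share of all 14417 genes called was 0.0694% for JQ1, 0.0971% for IBET151, 1.97% for JQ1-VHL and 4.55% for IBET151-VHL. Unadjusted, 2, 1, 1 and 3 of the 10 genes had a p under 0.05 in that order, as did 685, 509, 1477 and 2491 of the 14417. Against the parents 0 passed too, with 0.298% (JQ1 pair) and 0.541% (IBET151 pair) of genes called and 2 genes each at an unadjusted p under 0.05. Of all genes, 665 and 1394 had such a p. Between the parents and between the VHL forms 0 of the 10 genes and 0% of all genes were called in the nucleus, in limma without a block. At an unadjusted p under 0.05 were 0 of the 10, and 107 and 136 of all genes.

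**Figure D5:**
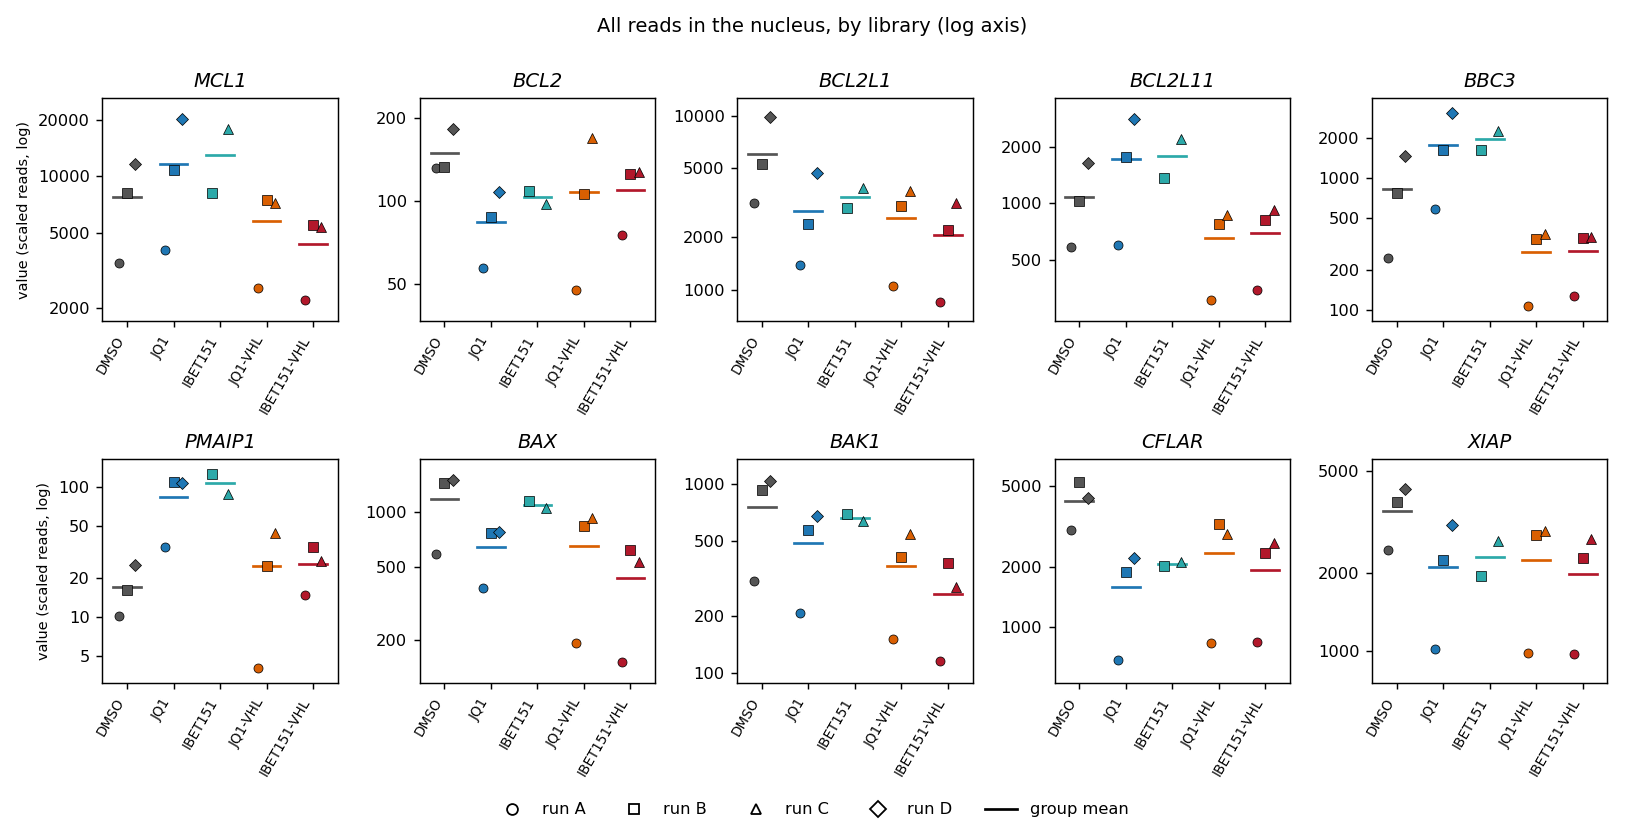
Values of all reads (scaled reads, log axis) in the 14 nuclear libraries, 1 panel per gene; each symbol is 1 library, its shape the run of library numbers, and the line the arithmetic mean of the group. Libraries of run A (circles) lie lowest in most groups, and BBC3 and PMAIP1 under JQ1 lie above the DMSO library of the same run.

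Nuclear BBC3 values were 247, 768 and 1457 in DMSO and 578, 1616 and 3118 in JQ1. They were 1633 and 2283 in IBET151, 107, 345 and 375 in JQ1-VHL, and 127, 355 and 356 in IBET151-VHL. JQ1 overlapped DMSO as groups, but in each of the 3 runs the JQ1 library was higher than its DMSO library, by 1.07 to 1.23. PMAIP1 in the nucleus was 10.2, 15.9 and 24.9 in DMSO and 34.3, 108 and 108 in JQ1, all higher, by 1.66 to 2.69 within runs. MCL1 differences within runs were smaller, 0.23 to 0.79 for JQ1 and -0.66 to -0.56 for IBET151-VHL.

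With the replicate number as a block, which the check of the numbers allows for DMSO, JQ1 and both VHL compounds, several nuclear differences passed. Replicate 3 is of run D for DMSO and JQ1 but of run C for the VHL compounds, so the block joins different runs there. The fit also holds IBET151, whose numbers did not pair. With JQ1, where 10.7% of all genes were called in that fit, BBC3 rose by 1.13 (adjusted p = 0.0108) and PMAIP1 by 2.14 (adjusted p = 0.0019), while BCL2L1 fell by 1.13 (adjusted p = 0.00407) and CFLAR fell by 1.54 (adjusted p = 4.09e-05). JQ1-VHL lowered 6 genes and IBET151-VHL 7 in the blocked fit, where 26.1% and 46% of all genes were called. BCL2L1, BBC3, BAX, BAK1, CFLAR and XIAP were lower with both, and MCL1 with IBET151-VHL. BAX, with no cytoplasmic difference past the threshold, had nuclear differences of -1.02 with JQ1-VHL (adjusted p = 0.0113) and -1.54 with IBET151-VHL (adjusted p = 2.37e-05). Those of BAK1 were -1.04 (adjusted p = 0.0128) and -1.52 (adjusted p = 6.88e-05). In the fit without a block, the median nuclear difference over all genes was -0.43 with JQ1, -0.48 with JQ1-VHL and -0.71 with IBET151-VHL. Against JQ1, JQ1-VHL had less MCL1, BCL2L11, BBC3 and PMAIP1 in the blocked fit, 4 genes where 5.25% of all genes were called, with a BBC3 difference of -2.57 (adjusted p = 1.54e-11).

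Whether a nuclear change differed from the cytoplasmic one was tested directly. In 0 of the 10 genes did the effect of any compound differ between the fractions, where 0% of genes were called for JQ1, JQ1-VHL and IBET151 and 0.00692% for IBET151-VHL. The intervals were wide. For BAX under IBET151-VHL the difference of the effects was -1.66, with an interval of -3.19 to -0.13 and an adjusted p of 0.9. The median of this difference over all genes was -0.525. At an unadjusted p under 0.05 were 1 of the 10 genes and 529 of all 14458.

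In DMSO, nuclear minus cytoplasmic values of all reads were 0.01 to 1.99 over the 10 genes, and BCL2 (1.99 ± 0.49, adjusted p = 9.41e-04) and XIAP (1.21 ± 0.51, adjusted p = 0.0447) were higher in the nucleus, where 48.4% of genes were called and the median of all genes was 1.26. Each fraction is scaled per its own RNA mass, so these differences do not give the share of a cell's RNA in each fraction. With the culture as a block XIAP did not pass (adjusted p = 0.0701), nor with only the groups compared or without cytoplasmic DMSO replicate 1 or 3 or nuclear DMSO replicate 2 or 3, at adjusted p up to 0.146.

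Nuclear T>C values could be tested for all 10 genes. With JQ1, CFLAR alone passed and fell by 2.60 ± 0.76 (adjusted p = 0.0314), where 2.41% of genes were called. With IBET151 0 of the 10 passed, where 1.3% were called. Of the 10, 3 had an unadjusted p under 0.05 with IBET151, as did 1006 of all 12059 genes. CFLAR T>C values were 282, 478 and 151 in DMSO and 42.0, 98.0 and 20.9 in JQ1. Every JQ1 library lay below every DMSO library, and the difference within runs was -2.80 to -2.27. The call was lost with median-ratio scaling, with a pseudocount of 0.5, and without DMSO replicate 1 or 2 or JQ1 replicate 1 or 3, at adjusted p up to 0.39. In IBET151 the CFLAR values were 78.5 and 25.9, also below every DMSO library. That difference passed with the replicate number as a block (adjusted p = 0.0434), although the numbers of IBET151 did not pair. It also passed with the run as a block (adjusted p = 9.37e-04). In these fits 2.2% and 5.51% of all genes were called. JQ1-VHL lowered 5 genes (BCL2L1, BBC3, BAX, CFLAR and XIAP), where 61.7% were called, and IBET151-VHL lowered 9, all but PMAIP1, where 85% were called. Against the parents 2 genes (BBC3 and PMAIP1) were lower with JQ1-VHL and 9 with IBET151-VHL, all but BCL2, where 13.3% and 81.7% were called. PMAIP1 reached the minimum in no DMSO or JQ1-VHL library, and BAK1 in no IBET151-VHL library. They entered through groups where they are high, so the falls of PMAIP1 with JQ1-VHL and of BAK1 with IBET151-VHL are a description. Single libraries decided some of these: BAX with JQ1-VHL was lost without DMSO replicate 1 or 2 or JQ1-VHL replicate 1, and BCL2 with IBET151-VHL without DMSO replicate 1 or 3 or IBET151-VHL replicate 2 and in edgeR and DESeq2, at adjusted p up to 0.205 and 0.275. Against the parents, PMAIP1 with JQ1-VHL was lost without JQ1 replicate 2. With IBET151-VHL, PMAIP1, BAK1 and CFLAR were lost without IBET151 replicate 1, PMAIP1 also without IBET151 replicate 2, and PMAIP1 and CFLAR without IBET151-VHL replicate 1. Median-ratio scaling also ended the calls of BCL2L1 and BAX with JQ1-VHL, of BCL2 and BCL2L11 with IBET151-VHL, and of PMAIP1 and CFLAR in the IBET151 pair. BCL2L1 had T>C values of 286, 223 and 343 in DMSO, 33.5, 90.9 and 86.6 in JQ1-VHL, and 12.4, 12.1 and 2.24 in IBET151-VHL, with differences from DMSO of -2.10 ± 0.72 (adjusted p = 0.00975) and -5.08 ± 0.72 (adjusted p = 6.08e-11). The median nuclear T>C difference over all genes was -0.67 with JQ1, -0.07 with IBET151, -1.92 with JQ1-VHL and -3.12 with IBET151-VHL. With JQ1-VHL, BCL2L1 was thus near that median. Over all reads, T>C shares in the nucleus were 2.25% to 8.02% in DMSO and 1.10% to 1.72% in IBET151-VHL.

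A list of 46 other genes of cell death held 35 with enough cytoplasmic reads to test. With JQ1, 0 rose and 1 fell, TNFSF10, the death ligand TRAIL, with a difference of -1.69 ± 0.41 that was lost with median-ratio scaling, with only the groups compared, and without DMSO replicate 1 or 3 or JQ1 replicate 2 (adjusted p up to 0.113). With IBET151 0 changed in limma, and 8 had an unadjusted p under 0.05, as did 1582 of all 12470 genes. JQ1-VHL lowered 5 of the 35 and IBET151-VHL 6, and raised 0, shares close to the 12.9% and 15.8% of all genes called. FADD, the adaptor of death receptors, had differences of -1.11 ± 0.15 and -1.71 ± 0.15, and BIRC2, an inhibitor of apoptosis that ubiquitinates RIPK1, of -0.89 ± 0.15 and -0.87 ± 0.15. FBXW7, a ubiquitin ligase subunit that targets MCL1 protein, had differences of -1.02 ± 0.25 and -1.03 ± 0.25, the former lost without DMSO replicate 1 or JQ1-VHL replicate 3 (adjusted p up to 0.0633) and the latter without IBET151-VHL replicate 3 (0.0652). TNFSF10 with JQ1-VHL (-1.73 ± 0.41) and BIRC3, a relative of BIRC2, with IBET151-VHL (-1.77 ± 0.38) were lower too, and both passed under every alternative tried. The median of these 35 genes was -0.14 with both VHL compounds. Against the parents, the BH3-only gene BIK differed by -0.76 ± 0.15 and -0.83 ± 0.16, and FADD by -0.64 ± 0.15 and -1.35 ± 0.16, all past the threshold, as was RIPK1, a kinase of the death receptor pathway, in the IBET151 pair (-0.93, adjusted p = 0.035), which was lost without any 1 of the 5 libraries. FADD in the JQ1 pair was lost without JQ1 replicate 1 or 2 or any JQ1-VHL library (adjusted p up to 0.133), and BIK in the IBET151 pair without IBET151 replicate 2 (0.0814).

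Genes were also ranked by how closely their cytoplasmic values followed those of MCL1, BBC3 and PMAIP1 over the 14 libraries, among 10233 genes with a mean of at least 50. Among the genes nearest to BBC3 were TIGD3 (r = 0.997) and NFIL3 (r = 0.985). Nearest to MCL1 were LNX2 (r = 0.989), TRIM62 (r = 0.979) and FAM220A (r = 0.976), and nearest to PMAIP1 were SERTAD1 (r = 0.970), DYRK3 (r = 0.961) and MIDN (r = 0.959). These correlations describe libraries that share treatments and scaling, and carry no test.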

How the data were processed

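RNA of 28 libraries, 14 nuclear and 14 cytoplasmic, was read at the 3′ end as single reads of 100 bp, per the labels' protocols. The submitters' processing notes name bcl2fastq, Trimmomatic 0.39, HISAT2, HTSeq and DESeq2, with GRCh37, hg19 and dm3 as builds. The rule that called a T>C read, and whether counting used strand, is not given in the sources used here. The deposited values are signal: gene counts of all reads and of T>C reads, divided by the authors by 1 factor per library and scaled to ERCC RNA, per the file names. After division by the value of 1 read, 100% of values lay within 0.001 of a whole number, so reads were recovered.

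The 10 genes and the list of 46 others were chosen with earlier results of these data known; every one of the 10 is described, and from the list, in cytoplasmic reads, those past the threshold, at most the 4 with the smallest p per comparison. Symbols were matched through a gene table, and 479 and 245 genes had none. A gene was tested where 2 or more libraries of the fit reached 10 in all reads, or 5 in T>C reads for T>C values and shares. The fit was limma 3.58.1 under R 4.3.3 with a variance trend, on log2(value + 1), with 1 fit per fraction, or of all 28 libraries for contrasts between fractions. Benjamini-Hochberg adjustment was over all genes per comparison, with 37 comparisons. Intervals of T>C read ratios are exact binomial 95% intervals (scipy 1.17.1). Depth per library is given with the results.

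Replicate numbers were checked by correlating deviations from group means. In all reads, every same-numbered pair of groups other than IBET151 exceeded 0.1 in both fractions, as did the fractions of DMSO. In T>C reads this held for nuclear DMSO and JQ1 alone. Pairing rests on this check, since the meaning of a number is not labelled. Other settings tried were a pseudocount of 0.5 or 5, no filter, a minimum 5 times as high, median-ratio scaling, only the groups compared, the replicate number or the run as a block, the quasi-likelihood test of edgeR 4.0.16 and DESeq2 1.42.0, both on the recovered reads, and leaving out each library. The scripts were tested on simulated data. Figures used matplotlib 3.10.9. No coordinates in the authors' build are given. A gene among those whose values lay nearest to BBC3 is not reported here.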

Additional observations from a re-analysis of the deposited data

How the results depend on the processing

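Counts of the 10 genes past the threshold are compared here. With only the groups compared, the cytoplasmic counts in all reads were 1 for JQ1 (5 in the fit of all groups), 2 for JQ1-VHL (4) and 1 for IBET151 (4), and the nuclear count for IBET151-VHL minus IBET151 was 1 (0), that of nuclear T>C reads for IBET151 1 (0), and that of the fractions of DMSO 1 (2). Without a filter, JQ1-VHL minus JQ1 in the cytoplasm gave 3 (5). In nuclear reads, where the count was 0 throughout, median-ratio scaling gave 5 for JQ1, 1 for JQ1-VHL, 4 for IBET151, 3 for IBET151-VHL, 3 for JQ1-VHL minus JQ1 and 1 for IBET151-VHL minus IBET151. The same scaling gave 0 (1) for JQ1 and 3 (5) for JQ1-VHL in nuclear T>C reads, 6 (2) for the fractions of DMSO, and 1 (0) for the nuclear minus cytoplasmic effects of JQ1-VHL and IBET151-VHL. It moved the median of all genes from -0.43 to 0.02 for nuclear JQ1, from -0.71 to 0.07 for nuclear IBET151-VHL and from -0.17 to 0.05 for cytoplasmic JQ1-VHL.

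With the replicate block the nuclear counts were 4 for JQ1, 6 for JQ1-VHL, 4 for IBET151, 7 for IBET151-VHL, 4 and 7 for JQ1-VHL and IBET151-VHL against their parents and 1 for JQ1 minus IBET151. In that order 10.7%, 26.1%, 5.67%, 46%, 5.25%, 65.5% and 24% of all genes were called with the block. In nuclear T>C reads the block gave 8 (5) for JQ1-VHL and 1 (0) for IBET151 where 71.4% and 2.2% of all genes were called, and it gave 1 (2) for the fractions of DMSO. Numbers of IBET151 did not pair with those of other groups. In the other comparisons the block left the counts of the 10 genes within 1.5 times, although single genes crossed the threshold. With the run as a block the nuclear counts were 10 for JQ1, 5 for IBET151, 7 for JQ1-VHL and 8 for IBET151-VHL, with 4 and 6 for these 2 against their parents, where 35.1%, 22.3%, 41%, 59.3%, 8.8% and 19.2% of all genes were called. In nuclear T>C reads they were 2 (1) for JQ1, 8 (5) for JQ1-VHL, 1 (0) for IBET151 and 6 (2) for JQ1-VHL minus JQ1, where 11.6%, 84.2%, 5.51% and 61.9% of all genes were called.

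In cytoplasmic T>C reads, JQ1 gave 0 (2) with a pseudocount of 0.5, 4 with 5, 0 with the higher minimum and 1 with edgeR or DESeq2, and IBET151 gave 0 (2) with the higher minimum, 0 with edgeR and 1 with DESeq2. Nuclear T>C reads gave 0 (1) and 2 for JQ1 with pseudocounts of 0.5 and 5, and 2 (0) for IBET151 with 5. The T>C share for JQ1 gave 3 (0) with a pseudocount of 5. In nuclear reads DESeq2 gave 1 (0) for JQ1-VHL minus JQ1 and edgeR 1 (0) for IBET151-VHL minus IBET151. The cause of these differences was not tested.

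Leaving out 1 library gave 3 to 5 for cytoplasmic JQ1, 1 to 5 for IBET151, 3 to 3 for JQ1-VHL minus JQ1 and 2 to 5 for IBET151-VHL minus IBET151. It gave 0 to 1 for nuclear JQ1-VHL minus JQ1 and 1 to 3 for the fractions of DMSO. In cytoplasmic T>C reads it gave 0 to 2 for JQ1, 1 to 2 for IBET151 and 3 to 5 for JQ1-VHL minus JQ1, and in nuclear T>C reads 0 to 1 for JQ1 and 1 to 2 for JQ1-VHL minus JQ1. Without an IBET151 library the group is 1 library, assumed to vary like the others. Of 5268 values of single genes under an alternative, 4980 kept their side of the threshold, 122 lost the call and 166 gained it. A change of direction with a call in either fit occurred in 0. Values called in neither fit were not compared for direction. Few reads limit PMAIP1, BCL2 and the T>C values under the VHL compounds.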
